A study of Mus musculus with 40 samples.

Results

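Adipocytes store energy as triglyceride and release it as fatty acids and glycerol by lipolysis, and the 9 genes described here carry the steps from the adrenergic signal to the last cut. They are Adrb1, Adrb3, Pde3b, Plin1, Abhd5, G0s2, Pnpla2, Lipe and Mgll, chosen by symbol for their place in this pathway, and they are 9 of the 34843 gene symbols in the count table. All 9 were among the 15807 genes with enough counts to be tested. The RNA was that of the subcutaneous fat (sWAT) of mice, the depot under the skin, in 40 libraries, 8 in each of 5 groups. The groups were mice on normal diet (ND), mice on high-fat diet (HFD), mice on HFD given semaglutide, mice on HFD given tirzepatide, and mice moved from HFD to ND (diet switch). Semaglutide is a lipidated peptide agonist of the glucagon-like peptide receptor GLP1R, and tirzepatide a lipidated peptide agonist of that receptor and of the receptor GIPR for glucose-dependent insulinotropic polypeptide. The study asked which genes stay altered and which return under these drugs or the change of diet. Strain, sex, age, dose and length of treatment cannot be read from the labels, nor whether the diet-switch mice had a drug first, as the title of the series leaves possible. The labels do not say that libraries of a group are separate animals, so the p-values measure the spread between these libraries.

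Noradrenaline from sympathetic nerves binds beta-adrenergic receptors on adipocytes, of which the product of Adrb3 is the one typical of rodent fat and the product of Adrb1 is shared with heart and other tissues. The receptors act through the G protein Gs and adenylyl cyclase to raise cAMP, which activates protein kinase A. Phosphodiesterase 3B, the product of Pde3b, breaks cAMP down and is switched on by insulin. Protein kinase A phosphorylates perilipin (Plin1) on the lipid droplet, which then lets go of Abhd5, the coactivator of adipose triglyceride lipase (ATGL, gene Pnpla2). G0s2 is a small protein that binds ATGL and inhibits it. ATGL makes diacylglycerol from triglyceride, hormone-sensitive lipase (Lipe) makes monoacylglycerol from diacylglycerol, and monoacylglycerol lipase (Mgll) frees the last fatty acid and glycerol. Insulin, adenosine, prostaglandin E and other signals through Gi-coupled receptors oppose the pathway.

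In GENCODE M21 (GRCm38, the mm10 build) Adrb1 lies on the plus strand at chr19:56722199-56733113, Adrb3 on the minus strand at chr8:27225776-27250616 and Pde3b on the plus strand at chr7:114415281-114539251. Plin1 lies at chr7:79720218-79732903 (minus), Abhd5 at chr9:122351608-122381524 (plus) and G0s2 at chr1:193272161-193273217 (minus). Pnpla2 lies at chr7:141455198-141460743 (plus), Lipe at chr7:25379527-25398710 (minus) and Mgll at chr6:88724412-88828360 (plus). Each is protein coding. A RefSeq promoter table of GRCm38.p6 held entries for 7 of the 9 members. Shown here, 5′ to 3′ on the gene's own strand, are 3 members whose RNA changed in at least 1 comparison, and Pnpla2, the target of G0s2, whose RNA passed in none. They cover chr19:56721867-56722116 (Adrb1, plus strand), chr1:193273218-193273438 (G0s2, minus strand), chr6:88724162-88724411 (Mgll, plus strand) and chr7:141454938-141455187 (Pnpla2, plus strand). Capitals mark GGGCGG (the GC box), CACGTG (an E-box) and TGACG (the core of the cAMP response element), each searched on both strands. For G0s2 the 221 bases outside its annotated exon are shown. The rest of its 250 bases, not shown, held a GC box match at -18 from the RefSeq start. A second entry for Mgll, not shown, held a GC box match and no E-box.
Adrb1: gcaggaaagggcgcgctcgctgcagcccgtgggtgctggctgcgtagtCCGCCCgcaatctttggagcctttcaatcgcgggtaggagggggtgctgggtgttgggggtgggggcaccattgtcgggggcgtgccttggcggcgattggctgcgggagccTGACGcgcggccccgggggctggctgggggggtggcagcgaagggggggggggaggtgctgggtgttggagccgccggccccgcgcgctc
G0s2: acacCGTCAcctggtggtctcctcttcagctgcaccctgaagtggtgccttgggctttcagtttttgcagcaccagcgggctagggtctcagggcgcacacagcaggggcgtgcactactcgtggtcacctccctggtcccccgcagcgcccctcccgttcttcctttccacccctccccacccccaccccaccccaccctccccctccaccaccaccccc
Mgll: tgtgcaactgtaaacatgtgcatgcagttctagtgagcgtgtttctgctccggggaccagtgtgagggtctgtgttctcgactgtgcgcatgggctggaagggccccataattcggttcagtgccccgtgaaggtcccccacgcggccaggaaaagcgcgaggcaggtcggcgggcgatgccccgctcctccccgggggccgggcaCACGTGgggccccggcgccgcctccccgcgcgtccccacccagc
Pnpla2: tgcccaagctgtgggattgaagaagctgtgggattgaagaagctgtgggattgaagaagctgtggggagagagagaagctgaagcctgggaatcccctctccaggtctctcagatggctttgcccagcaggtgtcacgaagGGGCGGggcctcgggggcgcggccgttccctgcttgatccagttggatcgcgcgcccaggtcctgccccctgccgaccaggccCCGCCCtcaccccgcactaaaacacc
Of 32851 promoters in windows of the same 250 bases, 32.7% held GGGCGG, 6.02% held CACGTG and 17.8% held TGACG. The full palindrome TGACGTCA was in 1.55% of all promoters and in none of the 9 entries for the members. These matches describe the letters only.

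The libraries held 2115471 to 7445548 counts (median 3765319.5). The 12 adipocyte markers (Adipoq, Pparg and others) were all measured, and their mean per library lay between 8.99 and 10.2 log2 CPM, that is, log2 of counts scaled to library size by TMM. Of these 12, 3 were called higher and 2 lower on HFD against ND (4.5% of all genes called). With tirzepatide against HFD 1 was higher and 4 were lower (20.5%). Their mean, used below as a covariate, is thus not a measure of adipocyte content alone. ND library 5 had the lowest adipocyte mean of all, and its B cell marker mean was high at 6.61, like that of semaglutide libraries 1, 3 and 8 (6.78, 5.66 and 5.75), against at most 1.42 in the other 3 groups. The mean of 14 skeletal muscle markers passed 5 in 10 libraries, of which 4 were given tirzepatide (1, 4, 5 and 7), 3 came from the diet switch (1, 3 and 6), 2 from ND (6 and 8) and 1 from HFD (4). Averaged by group it was highest with tirzepatide (4.47), then 4.00 in ND and 3.84 for the diet switch, against 2.06 with semaglutide and 1.95 for HFD. Diet-switch libraries 3, 4 and 7 stood apart in an earlier look at these data, for which no criterion is given here. This set was thus picked from these same data, and leaving it out also makes the group smaller. Each call below was also tried without these 3 sets of libraries. Without diet-switch libraries 3, 4 and 7 the genes called went from 3759 to 1148 in the switch against HFD. In the switch against ND they went from 2338 to 112. Without the muscle-high libraries those called in tirzepatide against HFD went from 3246 to 1666. In tissue RNA, fewer adipocytes and less RNA per adipocyte cannot be told apart.

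Of 90 tests (9 genes in 10 comparisons), 18 passed an adjusted p of 0.05 in edgeR's quasi-likelihood test with Benjamini-Hochberg adjustment over all 15807 genes. On HFD against ND, 1 member rose (Mgll) and 1 fell (Adrb3), where 4.5% of all genes were called, 2.83% higher and 1.68% lower. Semaglutide against HFD lowered 1 member (Mgll), where 4.15% of genes were called, 1.52% higher and 2.63% lower. Tirzepatide against HFD raised 2 (Adrb1, Adrb3) and lowered 1 (G0s2), where 20.5% of genes were called, 9.79% higher and 10.7% lower. The diet switch against HFD raised 3 (Adrb1, Adrb3, Pde3b) and lowered 1 (G0s2), where 23.8% were called, 12.8% higher and 10.9% lower. Against ND, G0s2 was the 1 member called with semaglutide (2.64% of genes called, 0.905% higher and 1.73% lower) and the 1 called with tirzepatide (10.1% called, 4.3% higher and 5.77% lower), lower in both. After the switch G0s2 was lower and Pde3b and Mgll were higher than in ND (14.8% of genes called, 7.97% higher and 6.82% lower). Semaglutide against the switch gave 3 lower members (Adrb3, Pde3b, Mgll), where 13.3% of genes were called, 6.29% higher and 7% lower. The median log2 fold change of the 9 members was -0.12 on HFD against ND (all tested genes -0.036), -0.025 for semaglutide against HFD (all 0.047), 0.13 for tirzepatide against HFD (all 0.033) and -0.0060 for the switch against HFD (all 0.031). The calls fell on 5 members, namely G0s2 (5 comparisons), Adrb3 (4), Mgll (4), Pde3b (3) and Adrb1 (2), and on none of Plin1, Abhd5, Pnpla2 and Lipe in their 40 tests (4 at an unadjusted p under 0.05, 3 called by DESeq2, 2 by limma-voom). Comparisons that share a control group are not independent of one another.

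**Figure D1:**
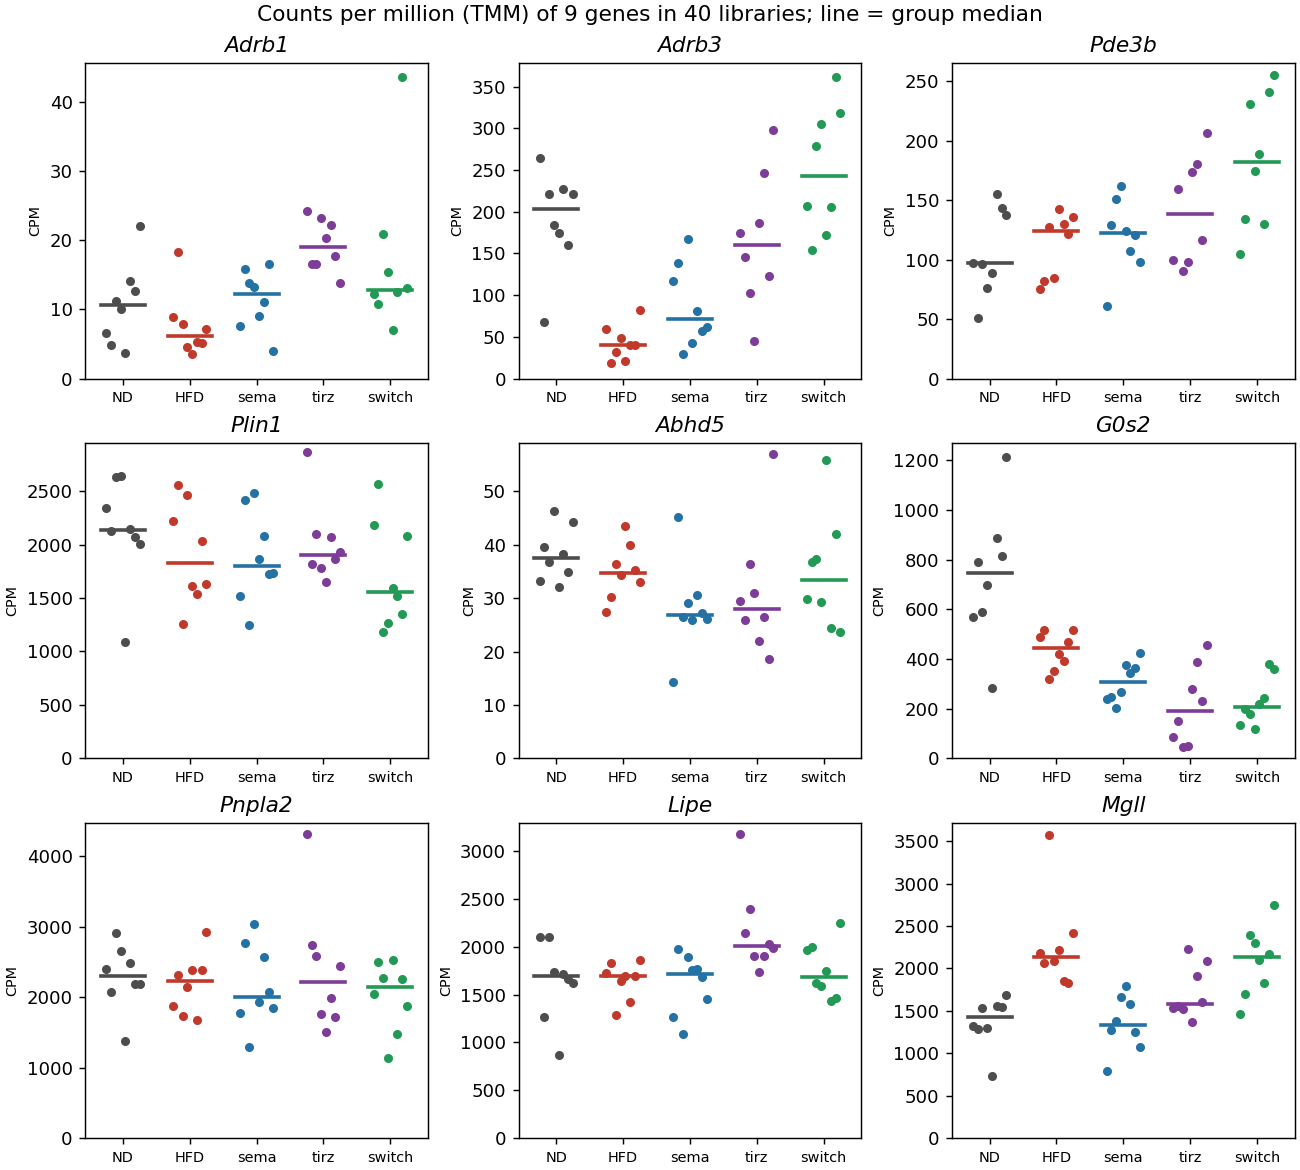
Level of each of the 9 genes in every library, as TMM-scaled CPM, by group (8 libraries each), with a bar at the group median. Adrb3 is lowest in HFD (median 40.2) and highest after the diet switch (median 243). G0s2 has a median of 744 in ND and of 190 with tirzepatide, where libraries run from 44.8 to 457. Pnpla2 medians stay between 1999 and 2297.

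**Figure D2:**
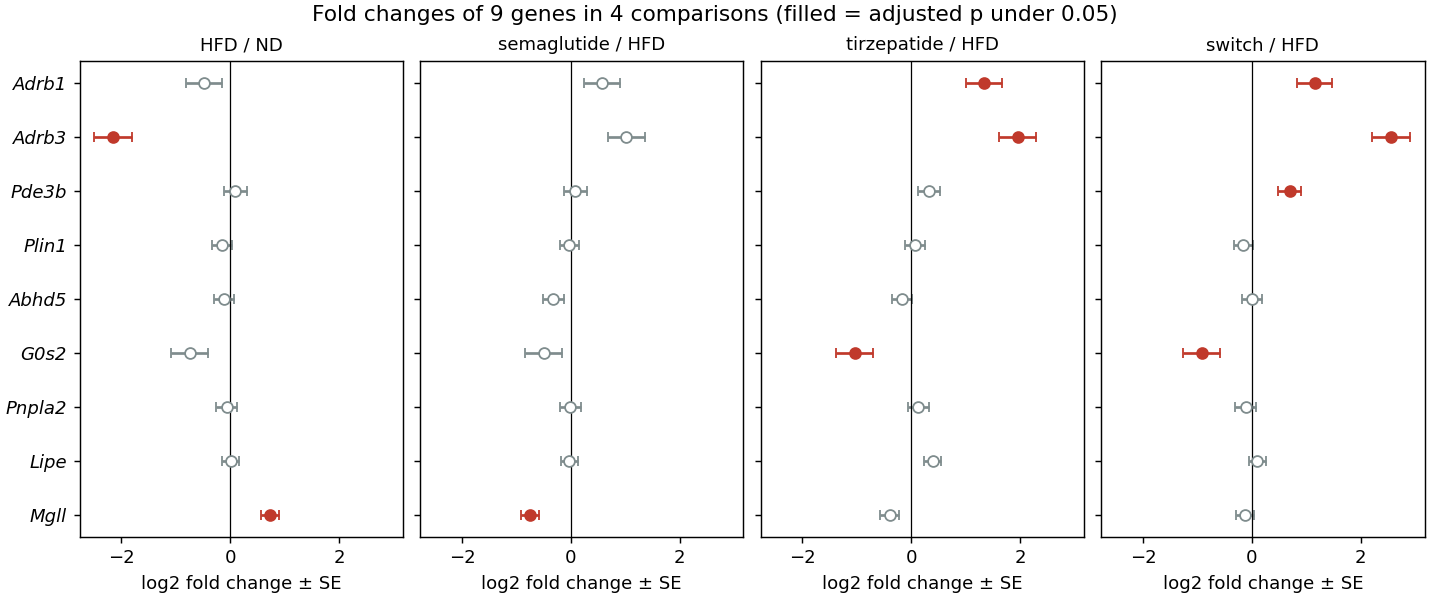
Log2 fold change of each of the 9 genes in HFD against ND and in each treatment against HFD. Error bars are the SE of the edgeR estimate, and calls at an adjusted p under 0.05 are marked. The largest shift is that of Adrb3 in the switch against HFD (2.55). Over all 10 comparisons, including those not drawn, the 95% intervals of Plin1, Pnpla2 and Abhd5 stay between -0.81 and 0.62.

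Of the 9 genes Adrb3, the receptor at the head of the pathway, differed most between groups. Its levels in ND ran from 68.0 to 264 TMM-scaled counts (CPM) with a median of 203. On HFD they ran from 18.8 to 82.1 (median 40.2), and the group mean was 22.5% of that in ND. Every HFD library lay below the ND median, and ND library 2, at 68.0, was the 1 ND library below the highest HFD library. The fall was -2.15 ± 0.35 on the log2 scale (SE, n = 8 per group, edgeR adjusted p = 7.56e-05). With semaglutide Adrb3 ran from 30.0 to 168 CPM (median 71.4, mean 45.7% of ND), with tirzepatide from 44.6 to 299 (median 160, 87.0%) and after the switch from 154 to 361 (median 243, 132%). The diet-switch and HFD libraries did not overlap, which held for 2.54% of all genes, whereas each drug group overlapped both HFD and ND.

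Tirzepatide against HFD raised Adrb3 by 1.95 ± 0.34 (edgeR adjusted p = 0.000108) and the switch against HFD by 2.55 ± 0.35 (adjusted p = 2.97e-06), with all 8 libraries of either group above the HFD median. Semaglutide against HFD gave 1.02 ± 0.34 (95% interval 0.36 to 1.68, adjusted p = 0.0768), with 7 of 8 libraries above the HFD median. That value passed with DESeq2 (adjusted p = 0.0445) and in edgeR without HFD library 8 (1.22, adjusted p = 0.0369), semaglutide library 3 (1.15, adjusted p = 0.0440) or semaglutide library 5 (1.12, adjusted p = 0.0478). It did not pass in the other 10 alternative settings (adjusted p up to 0.137) or without any other single library (up to 0.166). In the order of medians, no neighbours differed past the threshold. The switch against ND gave 0.40 ± 0.33 (adjusted p = 0.437), tirzepatide against ND -0.20 ± 0.33 (0.756) and tirzepatide against semaglutide 0.93 ± 0.33 (0.0658). Semaglutide against ND was -1.13 ± 0.33 (95% interval -1.79 to -0.48, adjusted p = 0.0579), with all 8 libraries below the ND median. It passed with DESeq2 (adjusted p = 0.0264) and limma-voom (0.00247), and in edgeR without ND library 2 (-1.26, 0.0325) or 5 (-1.15, 0.0457) or semaglutide library 2 (-1.26, 0.0456) or 4 (-1.34, 0.0249). The other 9 alternative settings did not pass (adjusted p up to 0.235), nor did leaving out any other single library (up to 0.129). Semaglutide stayed below the switch by -1.53 ± 0.34 (adjusted p = 0.00281), a call that was lost without diet-switch libraries 3, 4 and 7 (-1.29, adjusted p = 0.0735). The calls on HFD against ND, tirzepatide against HFD and the switch against HFD held without the muscle-high libraries, at -2.09, 2.25 and 2.65, and with the adipocyte marker mean as a covariate, at -2.30, 2.07 and 2.67. The antisense gene Gm45470 overlaps exons of Adrb3 with 665 counts in all libraries, against 22789 for Adrb3, and no source used here gives the strand setting of the counting.

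Adrb1 was counted at only 12 to 165 reads per library, so its values are coarse. It ran from 3.72 to 22.0 CPM in ND (median 10.6), from 3.55 to 18.3 on HFD (median 6.19) and from 3.95 to 16.5 with semaglutide (median 12.2). With tirzepatide it ran from 13.8 to 24.2 (median 19.1), and after the switch from 7.03 to 43.6 (median 12.8), where library 7 was the high one. All 8 tirzepatide libraries lay above the medians of each of the other 4 groups. Tirzepatide against HFD raised Adrb1 by 1.33 ± 0.33 (edgeR adjusted p = 0.00319), and the call was lost without the muscle-high libraries (1.09, adjusted p = 0.0769). The switch against HFD raised it by 1.15 ± 0.33 (adjusted p = 0.00873), and this was lost without diet-switch library 7 (0.79, adjusted p = 0.0625) or without libraries 3, 4 and 7 (0.55, adjusted p = 0.337). HFD against ND was -0.48 ± 0.33 (adjusted p = 0.489) and tirzepatide against ND 0.85 ± 0.32 (0.0820), the latter passing without ND library 8 (1.10, adjusted p = 0.0248). Tirzepatide against ND also passed with limma-voom (adjusted p = 0.0292) and in edgeR with the adipocyte marker mean as a covariate (0.0454). It passed in edgeR with only those 2 groups fitted (0.0450) or without diet-switch libraries 3, 4 and 7 (0.0430). The other 7 alternative settings did not pass (adjusted p up to 0.136). Without ND library 8 the switch against ND also passed (0.92, adjusted p = 0.0476), which at 0.67 ± 0.32 it did not with that library.

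Pde3b, which ends the cAMP signal, was higher after the diet switch. Levels ran from 51.3 to 155 CPM in ND (median 96.7), 75.6 to 143 on HFD (median 124), 60.8 to 162 with semaglutide (median 123), 90.2 to 206 with tirzepatide (median 138) and 105 to 255 after the switch (median 182). The groups overlapped throughout. HFD against ND gave 0.089 ± 0.21 (edgeR adjusted p = 0.870). The switch raised Pde3b by 0.70 ± 0.21 against HFD (adjusted p = 0.0132) and by 0.79 ± 0.21 against ND (0.0104), with 7 and 8 of 8 libraries above the medians. Both calls were lost without diet-switch libraries 3, 4 and 7, at 0.53 (adjusted p = 0.175) and 0.62 (adjusted p = 0.198). Semaglutide lay below the switch by -0.61 ± 0.21 (adjusted p = 0.0438), with every library below the switch median. That call was lost in 11 of the 16 fits that left out 1 library, namely without semaglutide 1, 2, 5, 6, 7 or 8 or diet switch 3, 4, 5, 7 or 8, where it ran up to an adjusted p of 0.104. It was also lost with no filter (-0.60, adjusted p = 0.0778), with limma-voom (-0.55, 0.0633), without the B cell-high libraries (-0.50, 0.176) and without diet-switch libraries 3, 4 and 7 (-0.45, 0.345). Tirzepatide against HFD was 0.32 ± 0.21 (adjusted p = 0.284) and passed with the adipocyte marker mean as a covariate (0.61, adjusted p = 0.0126). It passed in none of the other 10 alternative settings (adjusted p up to 0.361).

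The droplet gatekeepers Plin1 and Abhd5 passed in none of the 10 comparisons. Plin1, the perilipin that coats the droplet, had medians of 2133 CPM (ND), 1832 (HFD), 1798 (semaglutide), 1900 (tirzepatide) and 1559 (diet switch), within 1085 to 2863 over all libraries. Its log2 fold changes lay between -0.31 and 0.23, with 95% intervals reaching from -0.66 to 0.58. Changes of 1 log2 unit in either direction thus lay outside every interval, while changes inside the intervals remain compatible with these values. Abhd5, the coactivator that perilipin holds, had medians of 37.6, 34.7, 26.8, 28.0 and 33.3 CPM in the same order of groups, within 14.3 to 57.0. Its fold changes lay between -0.44 and 0.14 (intervals from -0.81 to 0.51). The lowest, semaglutide against ND, was -0.44 ± 0.19 (edgeR adjusted p = 0.224), with 7 of 8 semaglutide libraries below the ND median. With limma-voom, tirzepatide against ND passed for Abhd5 at -0.48 (adjusted p = 0.0427), against -0.30 ± 0.18 (0.318) with edgeR.

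G0s2, the inhibitor of ATGL, was lower than in ND in all 3 treated groups. In ND it ran from 282 to 1213 CPM (median 744), with library 5 the lowest. On HFD it ran from 321 to 519 (median 444), with semaglutide from 202 to 423 (median 305), with tirzepatide from 44.8 to 457 (median 190) and after the switch from 118 to 380 (median 208). Group means were 59.5%, 42.1%, 28.8% and 31.3% of ND. The tirzepatide libraries spread the most, 10.2-fold from lowest to highest, against 1.62-fold on HFD. Libraries 1 to 4 of the tirzepatide group ran from 44.8 to 149 CPM and libraries 5 to 8 from 232 to 457. Tirzepatide libraries 6 and 8 (388 and 457) lay within the HFD range. With semaglutide, libraries 1 to 4 also lay below libraries 5 to 8 (202 to 267 against 344 to 423 CPM). The switch gave the same order (118 to 198 against 218 to 380 CPM). ND and HFD libraries did not show this order, and its cause was not tested. All 8 libraries of each of the 4 groups lay below the ND median.

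Against ND, G0s2 fell with semaglutide (log2 fold change -1.25 ± 0.34, edgeR adjusted p = 0.0377), with tirzepatide (-1.79 ± 0.35, 0.000918) and in the switch (-1.67 ± 0.34, 0.00183). Against HFD it fell with tirzepatide (-1.04 ± 0.34, adjusted p = 0.0257) and after the switch (-0.93 ± 0.34, 0.0429), with 7 and 8 of 8 libraries below the HFD median. Semaglutide against HFD was -0.50 ± 0.34 (adjusted p = 0.426). HFD against ND was -0.75 ± 0.34 (adjusted p = 0.233), and it passed when only those 2 groups were fitted (adjusted p = 0.0153) or with the adipocyte marker mean as a covariate (-1.03, adjusted p = 0.0328). The other 9 alternative settings did not pass (adjusted p up to 0.491). No neighbours in the order of medians differed past the threshold.

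Several G0s2 calls were lost without the muscle-high libraries. The value was then -1.26 for tirzepatide against ND (edgeR adjusted p = 0.0774), -0.77 for tirzepatide against HFD (0.208), -0.81 for the switch against HFD (0.124) and -1.04 for semaglutide against ND (0.101), all past the threshold with them. The switch against ND kept its call in each of the 11 alternatives. Leaving out 1 library ended the call of the switch against HFD in 12 of 16 fits (all but HFD 3 and 4 and diet switch 7 and 8, adjusted p up to 0.0912) and of semaglutide against ND in 11 of 16 (all but ND 1, 3 and 5 and semaglutide 5 and 8, up to 0.0914). Within groups G0s2 followed the adipocyte marker mean with a Pearson r of 0.57 over the 40 libraries, and the muscle mean with -0.11. With the adipocyte mean as a covariate the calls against HFD were lost, at -0.80 (adjusted p = 0.0554) for tirzepatide and -0.69 (adjusted p = 0.0770) for the switch, and the 3 calls against ND held. Other losses left the fold change about as large. They were tirzepatide against HFD with no filter (-1.04, adjusted p = 0.0580) or with only those 2 groups (-1.04, 0.0902), and the switch against HFD with no filter (-0.94, 0.0805) or without diet-switch libraries 3, 4 and 7 (-0.92, 0.160). Semaglutide against ND was lost with no filter (-1.25, adjusted p = 0.0929) and without the B cell-high libraries (-1.33, 0.0914). The part of these markers in the result was not tested further.

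The lipases Pnpla2 and Lipe passed in none of their comparisons. Pnpla2, which encodes ATGL, had medians of 2297 CPM (ND), 2231 (HFD), 1999 (semaglutide), 2216 (tirzepatide) and 2150 (diet switch). Its fold changes lay between -0.18 and 0.24, with intervals from -0.56 to 0.62. The highest library was tirzepatide 1 at 4319 CPM, which was also the library with the fewest counts (2115471), and the lowest was diet switch 4 at 1141. Lipe, which encodes hormone-sensitive lipase, had medians of 1692, 1698, 1721, 2010 and 1687 CPM in the same order of groups. With tirzepatide it ran from 1741 to 3187 CPM, and all 8 libraries lay above the medians of each of the other 4 groups. Tirzepatide against HFD was 0.39 ± 0.16 (95% interval 0.089 to 0.70, edgeR adjusted p = 0.0643), against ND 0.40 ± 0.16 (0.0891) and against semaglutide 0.42 ± 0.16 (0.0708). None of the 3 passed in this fit, and all 3 passed with DESeq2 (adjusted p = 0.0353, 0.0460 and 0.0289) and in edgeR with the adipocyte marker mean as a covariate (0.56, 0.46 and 0.46, with adjusted p = 0.00678, 0.0245 and 0.0243). Tirzepatide against HFD also passed with limma-voom (adjusted p = 0.0303), without the B cell-high libraries (0.0282) and with only those 2 groups fitted (0.0459). In the other alternatives the 3 values did not pass, with adjusted p up to 0.278 against HFD, 0.321 against ND and 0.310 against semaglutide. The antisense gene 4732471J01Rik overlaps exons of Lipe with 859 counts in all, against 268615 for Lipe.

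Within each library the level of Pnpla2 can be set against that of its inhibitor G0s2. The difference in log2 CPM compares groups and not the abundance of the 2 RNAs. It ran from 0.85 to 2.31 in ND (median 1.70), from 1.94 to 2.60 on HFD (2.39), from 2.13 to 3.51 with semaglutide (2.78), from 2.36 to 5.84 with tirzepatide (3.54) and from 2.37 to 3.95 after the switch (3.40). Every tirzepatide and diet-switch library lay above the highest ND library. The tirzepatide median fell in a gap, with libraries 1 to 4 at 4.20 to 5.84 and libraries 5 to 8 at 2.36 to 2.88. The latter lay near or within the HFD range. Tirzepatide library 1 had the highest Pnpla2 of all libraries. No test was made of this difference.

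**Figure D3:**
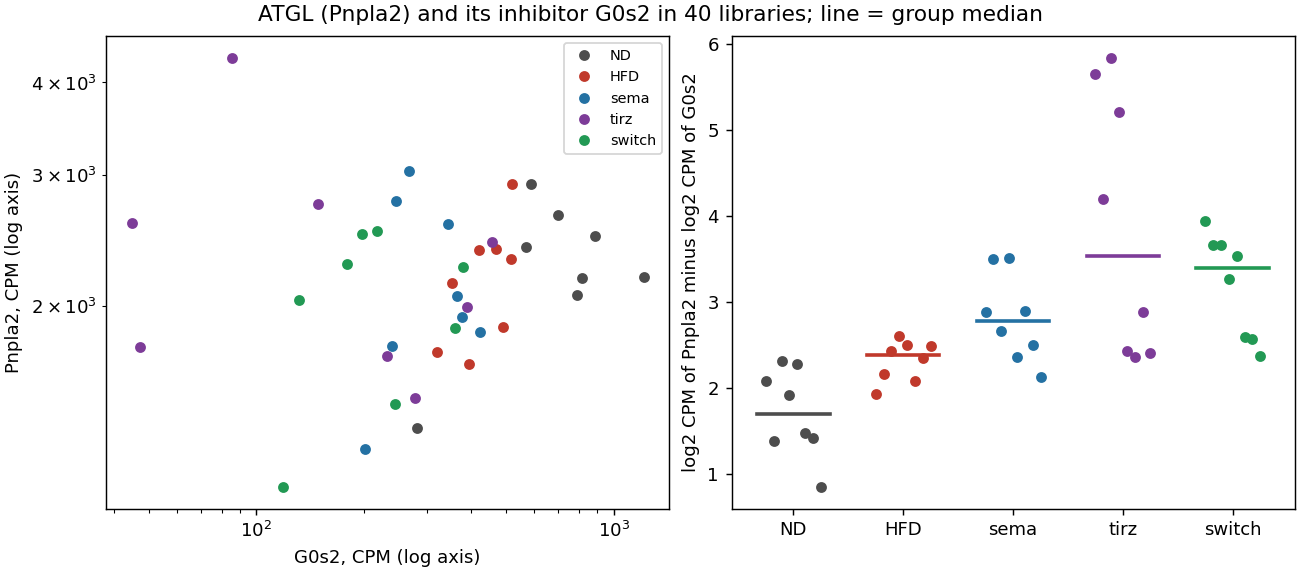
Log2 CPM of Pnpla2 minus log2 CPM of G0s2 in each library, by group, with a bar at the group median. Medians are 1.70 in ND, 2.39 on HFD, 2.78 in semaglutide libraries and 3.54 with tirzepatide. The tirzepatide median falls in a gap, with libraries 1 to 4 at 4.20 to 5.84 and libraries 5 to 8 at 2.36 to 2.88.

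Mgll, the lipase of the last step, rose on HFD and fell with semaglutide. It ran from 729 to 1682 CPM in ND (median 1428), from 1828 to 3580 on HFD (median 2136) and from 787 to 1799 with semaglutide (median 1332). The HFD libraries overlapped neither ND nor semaglutide libraries, which held for 1.52% and 1.19% of all genes. HFD against ND was 0.73 ± 0.17 (log2, edgeR adjusted p = 0.00419) and semaglutide against HFD -0.75 ± 0.17 (0.00437), and both calls held in each of the 11 alternatives. With tirzepatide Mgll ran from 1364 to 2230 CPM (median 1578), and -0.40 ± 0.17 against HFD did not pass (adjusted p = 0.0812). This value passed with DESeq2 (adjusted p = 0.0491), with limma-voom (0.0366) and without the B cell-high libraries (-0.41, adjusted p = 0.0280). It did not pass in the other 8 alternatives (adjusted p up to 0.438). After the switch Mgll ran from 1463 to 2745 CPM (median 2137), with -0.13 ± 0.17 against HFD (adjusted p = 0.627). It was above ND by 0.61 ± 0.17 (adjusted p = 0.0124) with 8 of 8 libraries over the ND median, and semaglutide lay below it by -0.63 ± 0.17 (0.0106). Without diet-switch libraries 3, 4 and 7 these last calls were lost, at 0.52 (adjusted p = 0.174) and -0.54 (adjusted p = 0.133), and the second also without the B cell-high libraries (-0.46, adjusted p = 0.0652). Semaglutide against ND was -0.019 ± 0.17 (95% interval -0.35 to 0.31, adjusted p = 0.980). Of 6 endothelial markers, 2 were called higher on HFD against ND (4.5% of all genes called) and 1 lower with semaglutide against HFD (4.15%). The switch against HFD called 2 of the 6 (23.8% of all genes). The group average of their mean was 6.41 log2 CPM on HFD and 6.14 after the switch, where the Mgll medians were alike. The range of the endothelial mean is given next. It ran from 5.53 to 6.33 log2 CPM in ND, from 6.11 to 6.62 on HFD, from 5.44 to 6.27 in semaglutide libraries, from 6.04 to 6.66 with tirzepatide and from 5.77 to 6.45 in the diet switch. Within groups Mgll had a Pearson r of 0.61 with that mean, 0.64 with the adipocyte mean and -0.60 with the B cell mean over the 40 libraries. With the adipocyte mean as a covariate the calls on HFD and with semaglutide held (0.57 and -0.58), and the part of the endothelial markers was not tested. Gm44005, annotated inside Mgll on the same strand, had 5434 counts against 275799 for Mgll.

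The peptides differ by the added activity of tirzepatide at GIPR, and no source used here gives their doses and times, so the values stand side by side at unknown doses. Of the 9 genes compared between tirzepatide and semaglutide, none passed with edgeR after adjustment over all genes (10% of all genes were called), 4 had an unadjusted p under 0.05, and 2 were called by DESeq2 and 2 by limma-voom. The differences with an unadjusted p under 0.05 were 0.93 for Adrb3 (95% interval 0.28 to 1.59), 0.75 for Adrb1 (0.13 to 1.38), 0.42 for Lipe (0.12 to 0.73) and 0.35 for Mgll (0.023 to 0.68), each higher with tirzepatide. Adrb3 was called by both other tools (adjusted p = 0.0466 and 0.0301), and in edgeR without semaglutide library 2 (1.06, adjusted p = 0.0493), semaglutide library 4 (1.14, adjusted p = 0.0285) or tirzepatide library 4 (1.08, adjusted p = 0.0333). The other 9 alternatives did not call Adrb3 (adjusted p up to 0.236). In edgeR Adrb1 passed with only those 2 groups fitted (0.75, adjusted p = 0.0400) and Mgll with the adipocyte marker mean as a covariate (0.41, 0.0439). Neither passed in its other 10 alternatives. G0s2 differed by -0.54 (interval -1.21 to 0.12) and was called by limma-voom (-0.95, adjusted p = 0.0199). The intervals were -0.17 to 0.65 for Pde3b, -0.26 to 0.44 for Plin1, -0.22 to 0.51 for Abhd5 and -0.23 to 0.51 for Pnpla2. Tirzepatide against the diet switch gave none called (0.399% of all genes called), none at an unadjusted p under 0.05 and none by DESeq2 or limma-voom. The widest intervals there were -1.24 to 0.048 for Adrb3 and -0.78 to 0.54 for G0s2.

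After subtracting group means, the 36 pairs of members had a median Pearson r of 0.17 over the 40 libraries. The highest were Plin1 with Lipe (0.82), Pnpla2 with Lipe (0.76), Plin1 with Pnpla2 (0.65) and Pde3b with Mgll (0.52), and the lowest was Pde3b with Plin1 (-0.25). Adrb3 and Adrb1 gave 0.16. Library depth and adipocyte content are shared by these points, and the values are descriptions.

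**Figure D4:**
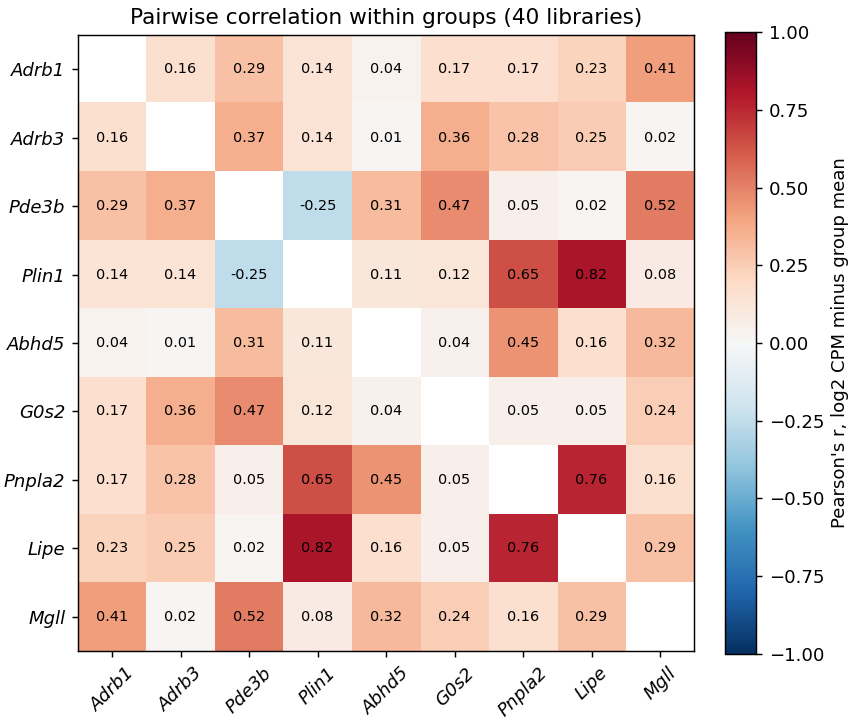
Pearson r between the 9 genes over 40 libraries, from log2 CPM with each group's mean subtracted. Plin1, Pnpla2 and Lipe form the block of highest values (0.65 to 0.82), and Adrb3 with Adrb1 stands at 0.16.

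Among 12753 tested genes whose mean reached 2 log2 CPM, the gene most like Adrb3 by this measure was Gm44386 (r = 0.73), followed by the carboxylesterase gene Ces1f (0.72), Cyp2e1 (0.67), Bcat2 (0.67) and Sfxn1 (0.65). For G0s2 it was Srebf1 (0.82), which encodes a transcription factor of lipid synthesis, and for Lipe Palm (0.86) and Cebpa (0.85), an adipocyte transcription factor. For Pde3b it was B3galt2 (0.89), with Acsl1 at 0.84 and the receptor gene Acvr1c at 0.84. For Plin1 it was Nenf (0.87), for Pnpla2 S100a1 (0.85) and for Mgll Slc24a3 (0.84), with Gpihbp1, the capillary anchor of lipoprotein lipase, at 0.80. Abhd5 and Adrb1 had the weakest likest genes, Trps1 (0.61) and Mrps33 (0.67).

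The rest of the pathway was read from lists, each to be set against all tested genes, of which 4.5% were called on HFD against ND, 4.15% with semaglutide, 20.5% with tirzepatide and 23.8% in the diet switch, each of these against HFD. The all-gene medians in that order were -0.036, 0.047, 0.033 and 0.031. Of 7 other adrenergic receptors, 3 were high enough to test (Adra1a, Adra1b, Adra2a), and none passed in HFD against ND or in any treatment against HFD with edgeR (1 of these 12 tests had an unadjusted p under 0.05, and none was called by DESeq2 or limma-voom). Of 17 tested genes for cAMP production and protein kinase A, 2 rose on HFD against ND. They were Adcy5, an adenylyl cyclase, by 1.13 ± 0.22 (edgeR adjusted p = 0.000802) and Prkar2b, a regulatory subunit of the kinase, by 0.90 ± 0.23 (0.0141). None passed with semaglutide against HFD (4 at an unadjusted p under 0.05, 2 by limma-voom, and 2 of all 20 listed genes by DESeq2). With tirzepatide against HFD 3 rose and 4 fell (20.5% of all genes called), among them Adcy5 (-1.06 ± 0.22), the catalytic subunit gene Prkaca (-0.90 ± 0.20) and Creb1, a factor that binds cAMP response elements (0.75 ± 0.18). After the switch 5 rose and 3 fell (23.8% of all genes called), with Prkaca at -0.77 ± 0.19 and Creb1 at 0.88 ± 0.18. The list medians were 0.17, -0.0022, -0.22 and -0.081 in these 4 comparisons, beside -0.036, 0.047, 0.033 and 0.031 over all genes.

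The antilipolytic receptors coupled to Gi were all 7 tested. On HFD 2 rose, Adora1, an adenosine receptor, by 0.86 ± 0.18 (edgeR adjusted p = 0.00121), and Ffar2, a receptor of short-chain fatty acids, by 0.81 ± 0.19 (0.00536). With semaglutide 2 fell against HFD, Ptger3, a prostaglandin E receptor (-0.90 ± 0.23, adjusted p = 0.0143), and Adora1 (-0.62 ± 0.18, 0.0335). With tirzepatide these 2 also fell (-1.10 ± 0.23 and -0.59 ± 0.18), and 2 rose, namely the neuropeptide Y receptor Npy1r (1.56 ± 0.42, adjusted p = 0.00686) and the lactate receptor Hcar1 (0.81 ± 0.28, 0.0365). The switch called the same 4 genes, with Ptger3 at -0.84, Adora1 at -0.50, Npy1r at 2.03 and Hcar1 at 0.84. List medians were 0.63, -0.45, -0.37 and -0.29. The treatments share the HFD libraries as controls.

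Of 13 tested genes for other lipid hydrolases and regulators, 3 rose and 1 fell on HFD (4.5% of all genes called), 3 fell with semaglutide (4.15%), 2 rose and 6 fell with tirzepatide (20.5%), and 2 rose and 3 fell after the switch (23.8%). Hilpda, which encodes another protein inhibitor of ATGL, rose by 2.01 ± 0.29 on HFD (edgeR adjusted p = 1.21e-05). Against HFD it fell with semaglutide (-1.65 ± 0.29, adjusted p = 0.000304), with tirzepatide (-2.19 ± 0.30, 1.42e-06) and in the switch (-2.36 ± 0.30, 5.78e-07). G0s2 stood at -0.75 on HFD against ND, which was not called. Ces1f rose with tirzepatide (1.19 ± 0.24) and after the switch (1.10 ± 0.24), and Abhd12, a lipid hydrolase, fell with semaglutide (-0.66 ± 0.15) and after the switch (-0.62 ± 0.15). The list medians were 0.43, -0.27, -0.71 and -0.51.

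Of 8 genes that carry the insulin signal to Pde3b, Pik3r1, a regulatory subunit of phosphatidylinositol kinase, fell on HFD (-0.79 ± 0.18, edgeR adjusted p = 0.00449), and Irs1 rose with semaglutide (0.83 ± 0.20, 0.00871). Tirzepatide and the diet switch each raised 3 and lowered 1 against HFD. Insr, the insulin receptor, rose by 0.76 ± 0.22 and 1.09 ± 0.22, Irs1 by 0.92 ± 0.20 and 0.60 ± 0.20, and Pik3r1 by 0.96 ± 0.18 and 0.78 ± 0.18, while Akt1 fell (-0.61 ± 0.20 and -0.73 ± 0.20). The list medians were -0.017, 0.19, 0.35 and 0.25. Of 7 tested cAMP target genes, Dio2, the deiodinase that activates thyroid hormone, rose on HFD (2.06 ± 0.50, adjusted p = 0.00645) and fell against HFD in each treatment (-3.40 ± 0.54, -2.10 ± 0.50 and -2.29 ± 0.50), at mean levels of 0.861 to 9.54 CPM. Ppargc1a, a coactivator of mitochondrial genes, rose with tirzepatide (1.26 ± 0.28, adjusted p = 0.00133).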

How the data were processed

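RNA of 40 libraries was extracted with Nucleozol and made into QuantSeq libraries, which count transcript ends, per the labels' protocols. The build was mm10, per the submitters' processing notes. Which aligner, counting program, annotation and strand setting were used is not given in the sources used here. As files, the authors deposited counts per gene symbol and a normalized table, which equals the counts divided by 1 factor per library and was not used. That table has 16 columns that match no sample, and they were used in nothing. Totals were 2115471 to 7445548 counts. No libraries were copies (chi-square over degrees of freedom at least 3.99 within groups).

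Counts were scaled by TMM and fitted with edgeR 4.0.16 (R 4.3.3) by quasi-likelihood with robust dispersions, 40 libraries in 1 fit. Genes kept by filterByExpr (99.39% of counts) were tested and called at a Benjamini-Hochberg adjusted p under 0.05. The SE is the size of the log2 fold change over the root of F. CPM are TMM-scaled and log2 CPM used a prior count of 2. Alternatives were DESeq2 1.42.0, its size factors, limma 3.58.1 (voom with quality weights), filters left out or set to 10 counts in 8 libraries, the 2 groups alone, the replicate block, an adipocyte covariate, and libraries left out. The procedure was tested on simulated data. Named genes were the members, up to 4 called genes per pathway list by smallest adjusted p in HFD against ND and each treatment against HFD, and the 5 likest genes per member. Members and lists were chosen with earlier results of these data known. Sequences came from RefSeq (GRCm38.p6), coordinates from GENCODE M21.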

Additional observations from a re-analysis of the deposited data

Results flagged for a closer look

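In each group of 8 libraries the lowest and highest were compared with their neighbours by Dixon's criterion. Of 45 gene and group combinations 6 held a library apart from the rest, and about 1 in 20 is flagged by chance. ND library 2 was low for Adrb3 (68.0 CPM against a group median of 203). ND library 5 was low for Plin1 (1085 against 2133), Pnpla2 (1370 against 2297) and Mgll (729 against 1428). The same library had the lowest adipocyte marker mean (8.99 log2 CPM) and a B cell marker mean of 6.61. Tirzepatide library 1 was high for Plin1 (2863 against 1900), and it had the fewest counts of all libraries. HFD library 3 was high for Mgll (3580 against 2136), and it also had the lowest HFD values for Plin1 (1260) and G0s2 (321).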

How the results depend on the processing

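Over 11 alternatives, 896 of 990 member values kept their direction and their side of the threshold, 24 lost a call, 28 gained one and 42 changed sign. Every value that changed sign belonged to a member not called in that comparison. Adrb3 and Mgll on HFD against ND, Adrb3 with tirzepatide and after the switch against HFD, Mgll with semaglutide against HFD and G0s2 after the switch against ND kept their calls in all 11. Where a count or direction moved, the cause was not tested, beyond fewer libraries in the settings that leave some out. Members called in semaglutide against HFD went from 1 to 2 with DESeq2 (all genes 656 to 1023). In tirzepatide against HFD they went from 3 to 5 with DESeq2 (all genes 3246 to 3661) and 5 with limma-voom (4488). They were 5 without the B cell-high libraries (3670) and 1 without the muscle-high libraries (1666). In the switch against HFD they went from 4 to 1 without diet-switch libraries 3, 4 and 7 (all genes 3759 to 1148). In the switch against ND they went from 3 to 1 without the same libraries (2338 to 112). In semaglutide against ND they went from 1 to 2 with DESeq2 (all genes 417 to 588) and 2 with limma-voom (970). They were 0 with no filter (267), without the muscle-high (286) or without the B cell-high libraries (330). In tirzepatide against ND they went from 1 to 2 with DESeq2 (all genes 1591 to 1941) and 3 with limma-voom (2483). They were 0 without the muscle-high libraries (542) and 2 without diet-switch libraries 3, 4 and 7 (1938). They were 3 with the adipocyte covariate (1851) and 2 with only the 2 groups (1476). In tirzepatide against semaglutide they went from 0 to 2 with DESeq2 (all genes 1584 to 2096) and 2 with limma-voom (2111). They were 2 with the adipocyte covariate (1930) and 1 with only the 2 groups (1368). In semaglutide against the switch they went from 3 to 1 without the B cell-high libraries (all genes 2101 to 1230). They were 0 without diet-switch libraries 3, 4 and 7 (276). With 1 library left out the counts ranged from 1 to 2 (semaglutide against HFD), 0 to 2 (semaglutide against ND), 1 to 2 (tirzepatide against ND), 0 to 1 (tirzepatide against semaglutide), 2 to 3 (semaglutide against the switch) and 3 to 4 (the switch against HFD and against ND). With limma-voom the sign turned for Lipe (-0.030) in HFD against ND and Plin1 (0.072), Pnpla2 (0.035) and Lipe (0.031) in semaglutide against HFD. Others were Pnpla2 (-0.0033) in tirzepatide against HFD and Lipe (0.0017) in semaglutide against ND. Also turned were Pnpla2 (-0.11) in tirzepatide against ND and Abhd5 (-0.077) and Pnpla2 (-0.038) in tirzepatide against semaglutide. Without the B cell-high libraries the sign turned for Lipe (-0.079) in HFD against ND and Plin1 (0.12), Pnpla2 (0.17) and Lipe (0.12) in semaglutide against HFD. Further values that turned were Pnpla2 (0.024), Lipe (0.044) and Mgll (0.037) in semaglutide against ND and Pnpla2 (-0.025) in tirzepatide against ND. Others were Plin1 (-0.066), Abhd5 (-0.017) and Pnpla2 (-0.050) in tirzepatide against semaglutide and Lipe (0.044) in semaglutide against the switch. Without the muscle-high libraries the sign turned for Plin1 (0.022) in semaglutide against HFD and Abhd5 (0.061) in tirzepatide against HFD. It also turned for Abhd5 (0.091) in the switch against HFD and Mgll (0.055) in semaglutide against ND. Further values that turned were Adrb3 (0.16) in tirzepatide against ND and Abhd5 (0.011) in the switch against ND. Others were Adrb1 (-0.068) and G0s2 (0.033) in tirzepatide against the switch. With the adipocyte covariate the sign turned for Pde3b (-0.18) and Lipe (-0.10) in HFD against ND and Plin1 (0.094), Pnpla2 (0.17) and Lipe (0.10) in semaglutide against HFD. It also turned for Abhd5 (0.12), Pnpla2 (0.016) and Mgll (0.023) in the switch against HFD and Lipe (0.0040) in semaglutide against ND. Without diet-switch libraries 3, 4 and 7 the sign turned for Plin1 (0.054) in the switch against HFD and Adrb1 (0.027) and Plin1 (-0.080) in semaglutide against the switch. With only the 2 groups compared the sign turned for Abhd5 (0.0026) in the switch against HFD. With 1 library left out, values that changed sign ranged over Pde3b -0.013 to 0.19 and Lipe -0.086 to 0.069 in HFD against ND and Plin1 -0.094 to 0.045, Pnpla2 -0.099 to 0.069 and Lipe -0.078 to 0.035 in semaglutide against HFD. They ranged over Plin1 -0.020 to 0.14 and Pnpla2 -0.049 to 0.20 in tirzepatide against HFD and Abhd5 -0.13 to 0.058 in the switch against HFD. They ranged over Adrb1 -0.031 to 0.34, Pnpla2 -0.17 to 0.0014, Lipe -0.12 to 0.043 and Mgll -0.11 to 0.064 in semaglutide against ND and Pnpla2 -0.12 to 0.14 in tirzepatide against ND. They ranged over Abhd5 -0.052 to 0.27 and Pnpla2 -0.037 to 0.23 in tirzepatide against semaglutide and G0s2 -0.38 to 0.035 in tirzepatide against the switch. The differences of Pnpla2 and G0s2 and the 4 highest correlations moved by less than their spread or interval in every setting run.

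The labels give no shared source for replicate numbers. Same-numbered libraries did not all deviate together, but did so somewhat more than others. Their correlation had a median of 0.031 (-0.35 to 0.26 over 80 pairs, 18 over 0.1), against -0.0050 for other pairs (65 of 560 over 0.1). Of 40 libraries, 11 correlated best with their own number, though same-numbered pairs were only 80 beside 560 others. With the replicate block 2, 1, 3 and 4 members were called in HFD against ND and in semaglutide, tirzepatide and the switch against HFD. They were 1, 1 and 3 against ND, 0 and 0 for tirzepatide against semaglutide and the switch, and 3 for semaglutide against the switch, the counts without it. For G0s2 the block gave smaller SEs, with -1.31 ± 0.27 (edgeR adjusted p = 0.000705) for tirzepatide against HFD. The switch against HFD gave -1.04 ± 0.26 (0.00433) and semaglutide against ND -1.25 ± 0.27 (0.00450). The SE of Adrb3 on HFD against ND was 0.34 with the block and 0.35 without it. Over all genes the block called 761 on HFD against ND, against 712 without it, and 99 for tirzepatide against the switch, against 63. Depth limits Adrb1 (12 to 165 counts per library) and Abhd5 (54 to 412) the most.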

Other observations

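Genes beside the lipolytic chain also differed. Of 14 other tested phosphodiesterase genes, Pde7a rose on HFD (0.79 ± 0.19, edgeR adjusted p = 0.00592) and fell with tirzepatide against HFD (-0.58 ± 0.19, 0.0212). Pde1a rose with tirzepatide (0.72 ± 0.23, adjusted p = 0.0202) and after the switch (1.07 ± 0.23, 0.000657) against HFD. None of the 14 passed with semaglutide against HFD with edgeR. Of these, 2 had an unadjusted p under 0.05 and limma-voom called 1, while DESeq2 called 1 of all 15 listed genes. Grk5, a kinase that desensitizes G protein-coupled receptors, fell with semaglutide (-0.69 ± 0.16, edgeR adjusted p = 0.00595) and with tirzepatide (-0.60 ± 0.16, 0.00575). Of 4 tested genes of catecholamine handling, the monoamine oxidase genes went opposite ways on HFD, Maoa up by 0.73 ± 0.19 (adjusted p = 0.0161) and Maob down (-0.57 ± 0.16, 0.0249). Of 6 genes of the natriuretic peptide branch, Prkg2 rose after the switch (1.27 ± 0.45, adjusted p = 0.0355) at 2.33 to 5.62 CPM.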
